A study of Rattus norvegicus with 9 samples.

Results

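Muscle stress and mechanosensing genes were followed in rat femurs after growth plate injury, as a set of 8: Abra, Xirp1, Ankrd1, Ankrd2, Csrp3, Actc1, Cntfr and Ip6k3. They were taken by symbol and make up 8 of the 31125 gene rows of the deposited count table. Each had 1 row, and 8 of 8 passed the low-count filter that left 15936 genes. The 8 were selected on their differences between the GMTT, GPI and Sham libraries analysed here, so their levels and differences are given as a description, with no test. RNA was sequenced from whole femurs of male rats in 3 groups of 3 libraries, taken at day 7. In the GMTT group the distal femoral growth plate was injured and a hydrogel named GMTT was applied, per the design text (the sample labels also call the growth plate of these femurs intact); the study title names a hydrogel of GelMa, a gelatin made cross-linkable with methacrylate, with TPGS, which is derived from vitamin E, and tea polyphenols. The GPI group had the growth plate injury alone, and the Sham group had sham surgery. Neither strain, age nor any pooling of animals is stated, so the error terms measure the spread between these libraries, which may be technical in part.

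Muscle fibres sense load through proteins anchored at the Z-disc and along titin, the giant spring protein of the sarcomere. Ankrd1 and Ankrd2 bind titin in its elastic region and can move to the nucleus, and Csrp3 (muscle LIM protein) sits at the Z-disc. Abra, also called STARS, binds actin and promotes nuclear entry of the MRTF cofactors of serum response factor. Xirp1 (Xin) binds actin filaments at attachment sites and gathers where fibres are damaged. Actc1 encodes cardiac alpha-actin, which developing skeletal muscle also makes before skeletal alpha-actin, the product of Acta1, takes over. Cntfr encodes the alpha receptor for ciliary neurotrophic factor, and Ip6k3 encodes a muscle-enriched kinase that makes inositol pyrophosphates.

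The libraries held 15927429 to 19715997 counts each, and the share of muscle RNA differed widely between the groups. How the femurs were trimmed is not stated, so muscle left on the bone and other sources of this RNA cannot be told apart. A list of 23 genes of the contractile bulk of fast muscle, of which 21 were found by symbol (Acta1 and Myh4 among them; Myh1 and Mylpf were not), took 3.20 to 3.41% of counts in GMTT, 16.1 to 16.3% in GPI and 0.334 to 0.352% in Sham. Erythroid and neutrophil markers (12 of 12 found) ran the other way, at 5.03 to 5.48% in GMTT, 0.103 to 0.113% in GPI and 8.43 to 9.30% in Sham. Of the 12 chondrocyte and bone markers, each had counts in GMTT and Sham, and Matn1 was at 0 in GPI; their sum was 0.0791 to 0.0817% of counts in GMTT, 0.0156 to 0.0167% in GPI and 0.113 to 0.118% in Sham. In whole tissue, fewer cells of a type and less RNA per cell cannot be told apart. Levels below are therefore given on 2 scales: CPM (counts scaled to a common library size) after trimmed-mean (TMM) scaling between libraries, called normalised CPM, and the log2 ratio of a gene to the mean of the 21 bulk muscle genes in the same library, which needs no scaling between libraries.

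On the normalised CPM scale, each of the 8 genes was highest in GPI (Actc1 was highest in GMTT with library totals alone) and lowest in Sham, with no overlap between the libraries of any pair of groups. In GPI against Sham, 8 of 8 were higher without overlap, where 88.3% of all tested genes had groups that did not overlap in either direction. For GMTT against GPI, 8 of 8 were lower on this scale, against 86.2% of tested genes without overlap, and for GMTT against Sham 8 of 8 were higher, against 61.7%. Each pair of these comparisons shares the libraries of 1 group, so they are not independent of each other. The sizes differed widely among the 8, and they fell into 3 patterns, which are taken up in turn.

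**Figure D1:**
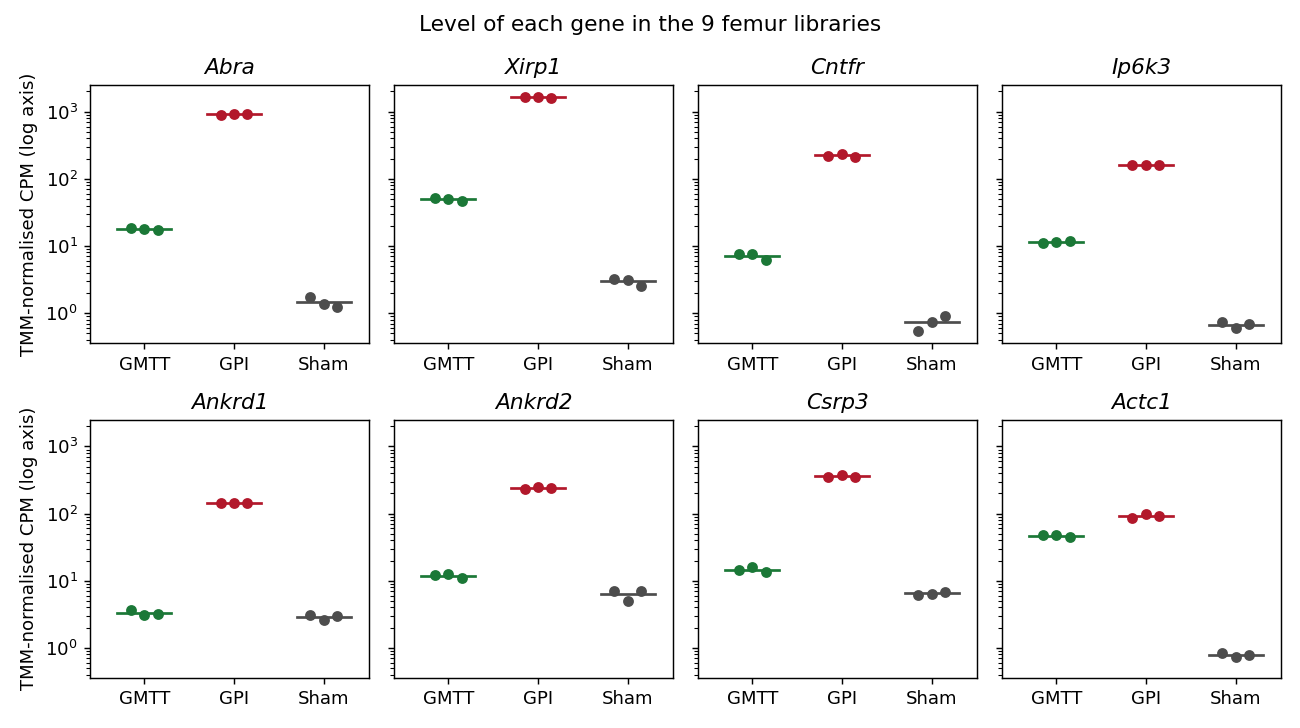
Normalised CPM (log axis) of each gene in the GMTT, GPI and Sham libraries; points are libraries and bars are means of 3. GPI is the highest group in each panel on this scale (for Actc1, not with library totals alone), and Actc1 has the smallest gap between GMTT and GPI, at 45.3 to 48.3 in GMTT and 86.1 to 97.0 in GPI.

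The actin-linked genes had the largest log2 differences of the 8 in GPI against Sham. Abra had 18.5, 18.1 and 17.3 normalised CPM in the GMTT libraries, 896, 936 and 911 in the GPI libraries and 1.71, 1.39 and 1.24 in the Sham libraries. Xirp1 had 51.3, 50.1 and 46.9 normalised CPM in GMTT, 1675, 1638 and 1623 in GPI and 3.18, 3.12 and 2.57 in Sham. For both, the GPI libraries stood far above the others, and GMTT lay between GPI and Sham. The log2 difference of GPI against Sham was 9.30 ± 0.08 (SE) for Abra and 9.12 ± 0.07 for Xirp1, and that of GMTT against GPI was -5.67 ± 0.06 for Abra and -5.06 ± 0.05 for Xirp1. GMTT was still above Sham, by 3.63 ± 0.10 on the log2 scale for Abra and 4.06 ± 0.08 for Xirp1. The profiles of these 2 genes were alike: the distance between their centred log2 profiles over 9 libraries was 0.80. From Abra and Xirp1 it was 1.58 and 1.41 to Cntfr, and 2.44 and 1.84 to Ip6k3. To Ankrd1, Ankrd2, Csrp3 or Actc1 it was 4.42 or more from either. Ankrd2 and Csrp3 were as close to each other, at 0.77.

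The receptor and the kinase followed a similar course at lower levels. Cntfr had 7.51, 7.60 and 6.19 normalised CPM in GMTT, 220, 238 and 212 in GPI and 0.538, 0.736 and 0.920 in Sham. Ip6k3 had 11.3, 11.6 and 12.0 normalised CPM in GMTT, 163, 158 and 158 in GPI and 0.734, 0.606 and 0.690 in Sham. The Sham levels rest on 11, 17 and 20 counts for Cntfr and on 15, 14 and 15 for Ip6k3, so their folds against Sham carry a wide counting error. The log2 difference of GPI against Sham was 8.23 ± 0.11 for Cntfr and 7.88 ± 0.10 for Ip6k3. In GMTT against GPI it was -4.97 ± 0.08 for Cntfr and -3.78 ± 0.06 for Ip6k3.

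The titin-binding and Z-disc genes differed less from Sham than Abra and Xirp1 did, in GPI and in GMTT. Ankrd1 had 3.63, 3.12 and 3.25 normalised CPM in GMTT, 143, 144 and 144 in GPI and 3.08, 2.60 and 2.94 in Sham. Ankrd2 had 12.3, 12.6 and 10.97 in GMTT, 232, 250 and 240 in GPI and 6.95, 4.94 and 6.99 in Sham. Csrp3 had 14.3, 16.0 and 13.5 in GMTT, 357, 376 and 349 in GPI and 6.17, 6.41 and 6.80 in Sham. GMTT and Sham nearly touched for Ankrd1, whose lowest GMTT library (3.12) was just above the highest Sham library (3.08); the log2 difference of 0.22 ± 0.13 there was the smallest of the 8. That of Ankrd2 was 0.93 ± 0.10 and that of Csrp3 1.17 ± 0.09. In GPI against Sham the log2 differences were 5.65 ± 0.08 for Ankrd1, 5.26 ± 0.08 for Ankrd2 and 5.80 ± 0.07 for Csrp3, and in GMTT against GPI they were -5.43 ± 0.08, -4.33 ± 0.07 and -4.63 ± 0.06 in the same order.

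Actc1 stood apart from the other 7. It had 47.3, 48.3 and 45.3 normalised CPM in GMTT, 86.1, 97.0 and 93.4 in GPI and 0.832, 0.736 and 0.782 in Sham. GMTT was thus at 0.51 of the GPI level, and both were far above Sham, where each library had 17 counts. The log2 difference was 6.87 ± 0.11 for GPI against Sham, -0.97 ± 0.06 for GMTT against GPI (0.13 when libraries were scaled by their totals alone) and 5.90 ± 0.11 for GMTT against Sham. Its profile was at a distance of 3.49 or more from each of the other 7. Skeletal alpha-actin did not run alongside: Acta1 averaged 5411 ± 322 normalised CPM in GMTT, 45771 ± 1902 in GPI and 587 ± 37.7 in Sham (SD, n = 3 each). Actc1 and Acta1 encode near-identical proteins. How reads matching both genes were counted is not stated, so the split of such reads is uncertain.

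Actc1 is also the main actin of heart muscle, so heart markers were counted beside it. Of the 14 listed, the summed share was 0.0509 to 0.0532% of counts in GMTT, 0.151 to 0.158% in GPI and 0.0220 to 0.0231% in Sham. Myl2, which slow skeletal fibres also express, and Gja1, a gap junction gene that bone and other cells also express, were the 2 highest in GMTT and Sham: summed over 3 libraries, Myl2 had 13308 counts in GMTT, 73231 in GPI and 2674 in Sham, and Gja1 had 12469 in GMTT, 3140 in GPI and 8444 in Sham, beside 1811, 10404 and 351 in the same order for Myh6; these 3 were named after their values were seen. The natriuretic peptide genes Nppa and Nppb and the transcription factor gene Tbx20, defining for heart, were at 0 counts in each of the 9 libraries. Summed over 3 libraries, the atrial light chain gene Myl7 had 1 count in GMTT, 3 in GPI and 0 in Sham, and Nkx2-5 had 1 in GMTT, 0 in GPI and 0 in Sham.

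The promoter sequences of the genes that typify each pattern are shown because known regulators of muscle genes, serum response factor (CArG box), MEF2, TEAD (MCAT, CATTCC) and myogenic bHLH factors (E-box, CANNTG), bind short motifs. RefSeq promoters of build GRCr8, from 250 bases before to 50 bases after the start, were matched by symbol for 4 of the 8 genes (Xirp1, Ankrd2, Actc1 and Ip6k3); Abra, Ankrd1, Csrp3 and Cntfr had no entry. Capitals mark a CArG box, MEF2 site or MCAT motif found on either strand; E-boxes are not capitalised. Sequences run 5′ to 3′ on the gene's strand, and Acta1 is given as a bulk muscle gene.
Xirp1, chr8:128634962-128635261 (minus strand, the most upstream of 3 starts): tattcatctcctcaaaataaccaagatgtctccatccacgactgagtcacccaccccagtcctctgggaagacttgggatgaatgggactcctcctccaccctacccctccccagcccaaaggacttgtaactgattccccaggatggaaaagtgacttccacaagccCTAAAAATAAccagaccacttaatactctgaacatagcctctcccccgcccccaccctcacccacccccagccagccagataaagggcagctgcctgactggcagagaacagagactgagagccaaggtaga
Ankrd2, chr1:250796169-250796468 (plus strand): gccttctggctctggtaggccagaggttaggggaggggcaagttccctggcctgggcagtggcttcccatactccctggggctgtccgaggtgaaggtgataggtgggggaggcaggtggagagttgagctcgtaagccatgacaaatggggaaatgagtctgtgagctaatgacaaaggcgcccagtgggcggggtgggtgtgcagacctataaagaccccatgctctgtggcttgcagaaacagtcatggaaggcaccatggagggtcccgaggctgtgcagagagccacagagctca
Actc1, chr3:121271778-121272077 (minus strand): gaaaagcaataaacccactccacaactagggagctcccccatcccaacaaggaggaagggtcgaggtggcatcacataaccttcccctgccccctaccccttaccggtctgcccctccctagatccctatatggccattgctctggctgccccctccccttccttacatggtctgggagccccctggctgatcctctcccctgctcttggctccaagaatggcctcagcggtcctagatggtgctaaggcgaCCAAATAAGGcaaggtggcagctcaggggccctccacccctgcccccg
Acta1, chr19:68784145-68784444 (minus strand): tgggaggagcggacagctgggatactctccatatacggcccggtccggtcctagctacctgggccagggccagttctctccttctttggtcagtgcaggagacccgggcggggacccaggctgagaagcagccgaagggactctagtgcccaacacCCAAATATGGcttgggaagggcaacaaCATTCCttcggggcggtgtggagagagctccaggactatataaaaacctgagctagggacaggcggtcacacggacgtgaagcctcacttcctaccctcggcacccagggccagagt
Xirp1 held a MEF2 site 82 bases before the start and 1 E-box. Ankrd2 held none of the capitalised motifs and 2 E-boxes. Actc1 held a CArG box that begins within the first bases after the RefSeq start, and no E-box. Acta1 held a CArG box and an MCAT motif that do not overlap, and 1 E-box. Ip6k3, not printed, held 3 E-boxes and no other motif. Of 33469 promoters of the same length, 1.64% held a CArG box, 3.29% a MEF2 site, 14.2% the MCAT motif and 72.1% an E-box. A match is a run of letters, not a shown binding site, and these windows are short.

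Set against the bulk muscle genes, the 8 spanned a wider range in each comparison. In GPI against Sham the log2 differences of the 8 ran from 5.26 to 9.30 (median 7.37), those of the 21 bulk muscle genes from 4.65 to 7.98 (median 6.35), and the median of all tested genes was -0.19. For GMTT against GPI the 8 ran from -5.67 to -0.97 (median -4.80), the bulk muscle genes from -4.65 to -1.09 (median -3.30), and the median of all genes was 0.12. For GMTT against Sham the 8 ran from 0.22 to 5.90 (median 3.45) and the bulk muscle genes from 2.67 to 3.92 (median 3.22), with all genes at -0.00. Scaling by library totals alone moved the median of all genes to -1.28 in GPI against Sham and to 1.22 in GMTT against GPI, and the 8 moved with it, to medians of 6.28 and -3.70.

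**Figure D2:**
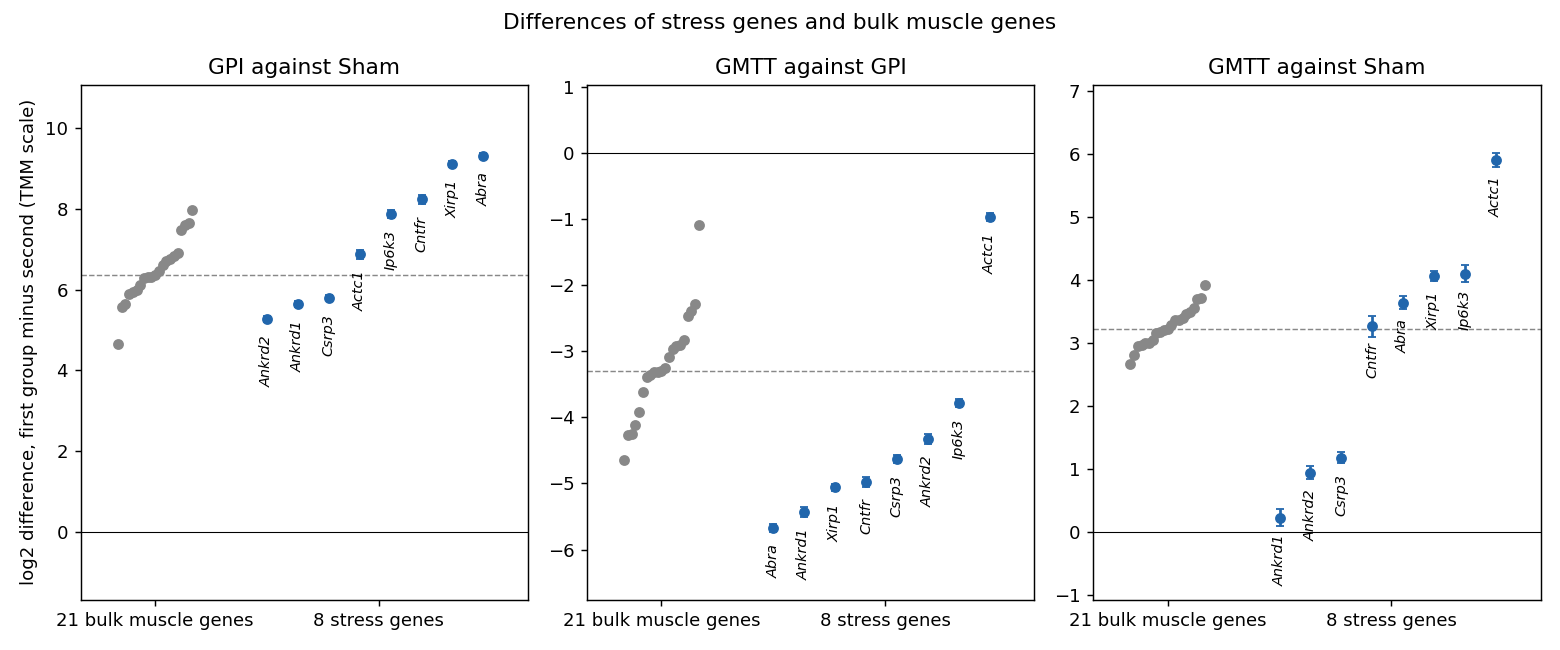
Log2 differences on the TMM scale in 3 comparisons, for the 21 bulk muscle genes (grey, sorted; dashed line, their median) and the 8 stress genes (blue, with SE). In GMTT against GPI, 7 of the 8 lie below the bulk muscle median of -3.30 and Actc1 lies above it at -0.97 (0.13 with library totals alone); in GMTT against Sham, Ankrd1, Ankrd2 and Csrp3 lie below the bulk muscle range, and Actc1, Ip6k3 and Xirp1 above it.

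Relative to bulk muscle genes of the same library, the 3 patterns separated in direction as well as size. Abra, Xirp1, Cntfr and Ip6k3 were higher per unit of muscle RNA in GPI than in Sham. The difference in log2 ratio was 2.82 ± 0.15 (SE) for Abra, 2.64 ± 0.12 for Xirp1, 1.76 ± 0.21 for Cntfr and 1.36 ± 0.07 for Ip6k3, beside -1.83 (Pvalb) to 1.49 (Ttn) for the bulk muscle genes themselves. Only Abra, Xirp1 and Cntfr of these 4 therefore lay outside the range of the bulk genes. In GMTT against GPI the same 4 were lower, with differences of -2.45 ± 0.02 for Abra, -1.83 ± 0.03 for Xirp1, -1.75 ± 0.08 for Cntfr and -0.56 ± 0.05 for Ip6k3, where the bulk genes ran from -1.42 (Myh2) to 2.13 (Pvalb). Against Sham, the GMTT ratios differed less than against GPI for Abra (0.37 ± 0.15), Xirp1 (0.80 ± 0.12) and Cntfr (0.01 ± 0.22, groups overlapping). For Ip6k3 the GMTT ratio differed more from Sham, at 0.80 ± 0.08. The values of Xirp1 and Ip6k3 lay above the highest bulk gene, at 0.67 (Mybpc2). With Myh4 alone as the muscle gene, the ratio of GMTT against Sham turned to -0.06 for Abra and -0.42 for Cntfr.

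Ankrd1, Ankrd2 and Csrp3 were lower per unit of bulk muscle RNA in GPI than in Sham and lower again in GMTT. Ankrd1 had log2 ratios of -7.89, -8.12 and -8.00 in GMTT, -5.81, -5.82 and -5.78 in GPI and -4.85, -5.07 and -4.96 in Sham, with no overlap between groups. The difference of GMTT against GPI was -2.20 ± 0.07 for Ankrd1, -1.11 ± 0.05 for Ankrd2 and -1.41 ± 0.06 for Csrp3, and only that of Ankrd1 lay outside the range of the bulk genes. In GPI against Sham the differences were -0.84 ± 0.07 for Ankrd1, -1.21 ± 0.15 for Ankrd2 and -0.68 ± 0.04 for Csrp3, inside the range of the bulk genes. These depend on the muscle genes chosen: with 10 slow fibre genes in place of the bulk list, Ankrd1 (0.03) and Csrp3 (0.19) turned positive in GPI against Sham and Ankrd2 was at -0.34. GMTT against Sham gave -3.04 ± 0.09 for Ankrd1, -2.32 ± 0.16 for Ankrd2 and -2.09 ± 0.06 for Csrp3, below the bulk genes, which ran from -0.59 (Tpm2) to 0.67 (Mybpc2). Which cells carried the counts of these 3 genes in Sham was not tested.

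Actc1 was the only one of the 8 with its highest ratio to bulk muscle in GMTT. Its log2 ratios were -4.20, -4.18 and -4.20 in GMTT, -6.54, -6.39 and -6.41 in GPI and -6.71, -6.86 and -6.84 in Sham. The difference was 2.25 ± 0.05 for GMTT against GPI and 2.61 ± 0.05 for GMTT against Sham, both above the highest bulk genes, at 2.13 (Pvalb) and 0.67 (Mybpc2). For GPI against Sham it was 0.36 ± 0.07, well inside it. With Acta1 alone or Myh4 alone as the reference, GMTT against GPI gave 2.11 and 1.96. Over the 8 genes, the median difference in log2 ratio was 0.86 for GPI against Sham, -1.58 for GMTT against GPI and 0.19 for GMTT against Sham.

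**Figure D3:**
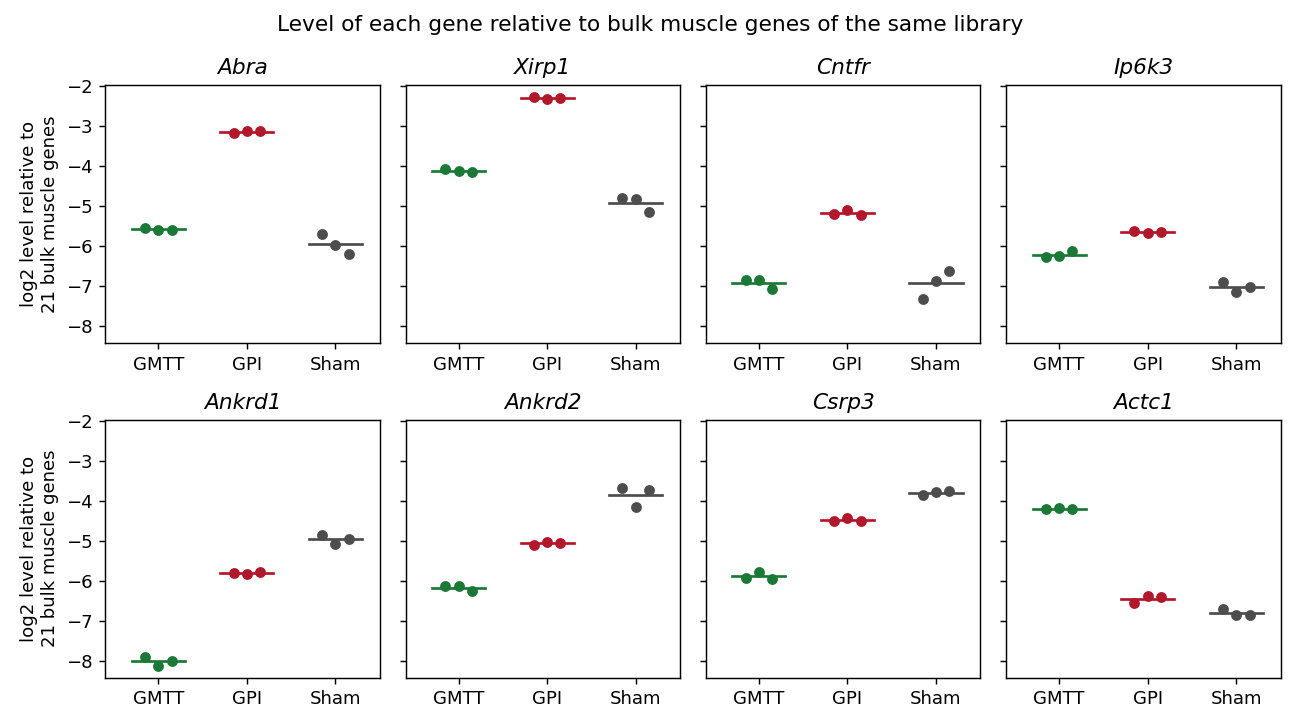
Log2 level of each gene relative to the mean of 21 bulk muscle genes in the same library; points are libraries, bars are means of 3, in the order GMTT, GPI, Sham. The upper 4 genes peak in GPI, Ankrd1, Ankrd2 and Csrp3 are lowest in GMTT (-8.00, -6.17 and -5.88 on average), and Actc1 is highest in GMTT at -4.19.

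Per length, as FPKM (counts divided by gene length and a library constant), the order of the 8 genes changed between groups. In GMTT, mean FPKM was 31.5 for Actc1, then 15.1 for Csrp3 and 14.0 for Abra, which overlapped, then 8.41 for Ankrd2, 6.85 for Xirp1, 5.33 for Ip6k3, 4.40 for Cntfr and 1.34 for Ankrd1. In GPI, Abra led at 710, followed by Csrp3 at 373, Xirp1 at 228, Ankrd2 at 169, Cntfr at 138 and Ip6k3 at 73.3; Actc1 (61.7) and Ankrd1 (58.0) came last and overlapped. In Sham, Csrp3 was first at 6.55 and Ankrd2 second at 4.33, Ankrd1 (1.14) and Abra (1.10) overlapped, and Actc1, Cntfr, Xirp1 and Ip6k3 lay between 0.513 and 0.304. Actc1 thus led in GMTT and was among the lowest in GPI. The coefficient of variation between libraries was taken on normalised CPM, not FPKM. Over the 8 genes it was 3.07 to 11.2% in GMTT, 0.555 to 6.02% in GPI and 5.00 to 26.1% in Sham.

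The partners of these genes at the Z-disc were tested in a fit across all genes. On the TMM scale, 40.1% of the 15936 tested genes were called higher and 48.1% lower in GPI against Sham at an adjusted p below 0.05 (3521 higher and 11210 lower with library totals alone, beside 6387 and 7662). In GMTT against GPI, 45.7% were called higher and 40.2% lower (11503 higher and 3016 lower with library totals alone, beside 7285 and 6400), and in GMTT against Sham 29.5% higher and 28.3% lower. Of 34 Z-disc and stretch-sensing partner genes tested, 34 were higher in GPI than in Sham (median log2 difference 6.51), 34 were lower in GMTT than in GPI (median -3.75; 33 with library totals alone) and 34 were higher in GMTT than in Sham (median 2.72). Filamin C, encoded by Flnc and known to gather at damaged sarcomeres, averaged 158 ± 10.9 normalised CPM in GMTT, 4559 ± 74.6 in GPI and 17.1 ± 0.274 in Sham (SD, n = 3 each). Its log2 difference was 8.05 ± 0.06 (SE) for GPI against Sham and -4.85 ± 0.05 for GMTT against GPI (edgeR quasi-likelihood fit). Flnc is named for the highest GPI against Sham difference of the list, so no p-value is given for these 2 comparisons. Lmod2, which encodes the actin filament nucleator leiomodin 2, differed by 7.77 ± 0.07 and -4.63 ± 0.05 in the same 2 comparisons. At the other end, Fhl2, a LIM-domain gene also expressed outside muscle, differed by 1.43 ± 0.11 in GPI against Sham and by -0.87 ± 0.10 in GMTT against GPI (0.23 with library totals alone).

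Scaled to the summed counts of the bulk muscle genes, the partners split. This scale asks whether a gene differed more or less than the muscle bulk did; on it 0.508% of tested genes were called higher and 97.6% lower in GPI against Sham, 95.0% higher and 2.0% lower in GMTT against GPI, and 0.364% higher and 97.2% lower in GMTT against Sham. The higher calls were 81 genes in GPI against Sham and 58 in GMTT against Sham, and 341 and 391 with slow fibre genes as the scale. In GPI against Sham, 10 of the 34 partners were higher, 16 lower and 8 not called (27 higher and 6 lower with slow fibre genes as the scale). For GMTT against GPI, 5 were higher (Fhl2, Itgb1bp2, and Fhl3, Pdlim5 and Hspb6, the last 3 named after their values were seen), 24 lower and 5 not called; the median was -0.37, beside 3.49 for all genes and 0.08 for the 21 bulk genes. Flnc differed by 1.40 ± 0.06 in GPI against Sham and -1.47 ± 0.05 in GMTT against GPI, and Lmod2 by 1.11 ± 0.08 and -1.25 ± 0.06. Both were close to Sham in GMTT, at -0.07 ± 0.06 and -0.14 ± 0.09, with adjusted p = 0.271 and 0.130 (edgeR), and at 1.23 and 1.16 with slow fibre genes as the scale. Over the list, GMTT against Sham gave 27 lower and 7 not called (1 higher without Sham replicate 2), against 23 higher and 6 lower with slow fibre genes as the scale. The slow fibre list includes Tpm3 and Atp2a2, which other cells also express.

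**Figure D4:**
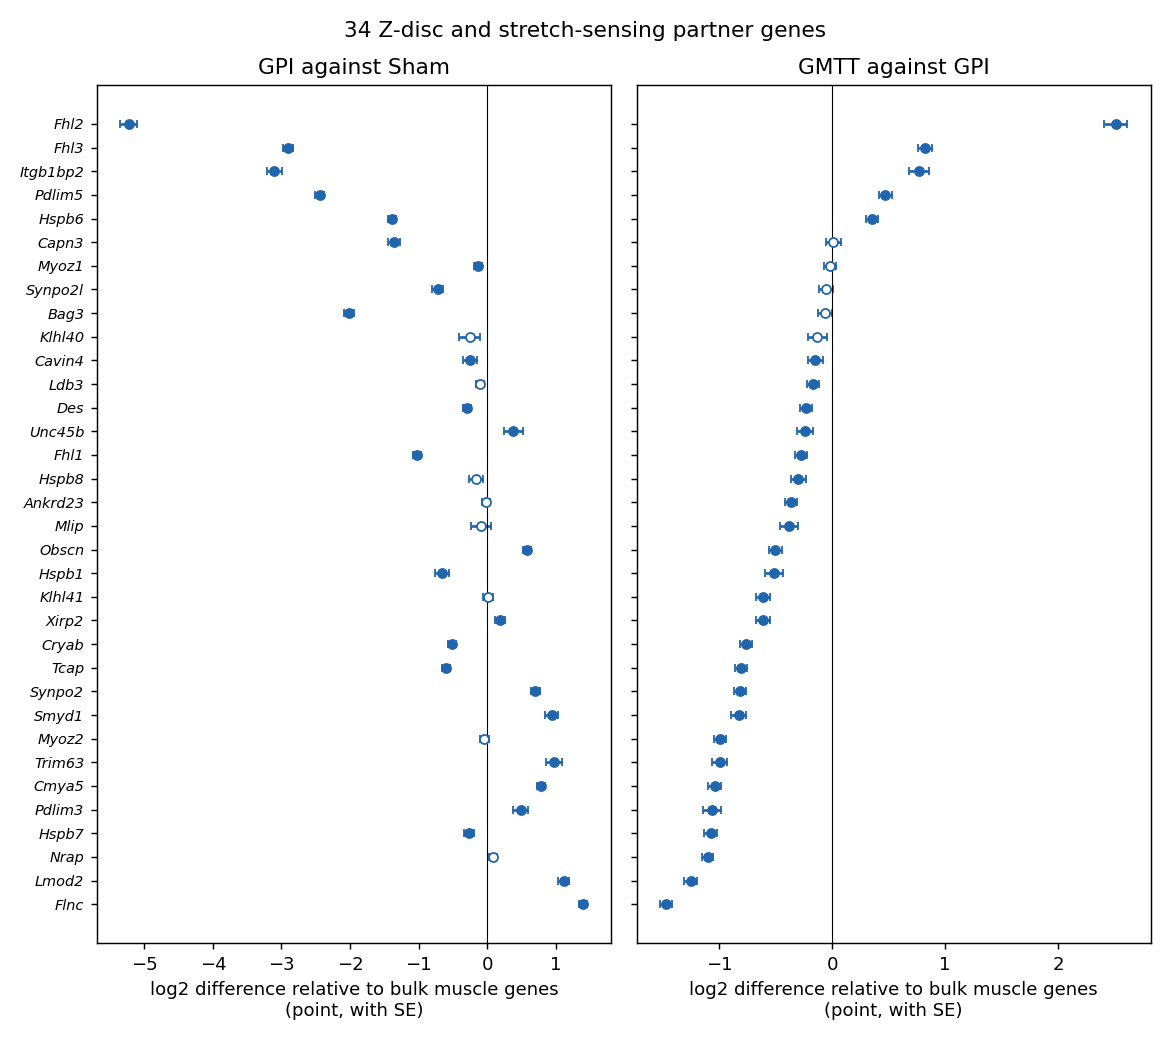
Log2 difference relative to bulk muscle genes, with SE, for 34 Z-disc and stretch-sensing partner genes in GPI against Sham and GMTT against GPI; filled points passed an adjusted p below 0.05 in edgeR. Flnc and Lmod2 at the foot differ by 1.40 and 1.11 in GPI against Sham and by -1.47 and -1.25 in GMTT against GPI, and Fhl2 at the top by -5.23 and 2.51.

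Abra acts on the MRTF and serum response factor route, and Ankrd1 is a known target of YAP and TEAD. Of 31 regulators and targets of the 2 routes tested on the TMM scale, 23 were higher and 8 lower in GPI than in Sham (18 and 11 with library totals alone). In GMTT against GPI, 7 were higher, 23 lower and 1 not called (Tead2, named after its values were seen; 12 higher and 16 lower with library totals alone), and in GMTT against Sham 22 were higher, 4 lower and 5 not called. Tead1, a TEAD factor abundant in muscle, had 7.89 ± 0.738 normalised CPM in GMTT, 160 ± 18.1 in GPI and 1.18 ± 0.0139 in Sham, with log2 differences of 7.08 ± 0.11 for GPI against Sham and -4.34 ± 0.08 for GMTT against GPI. Vgll2, a TEAD cofactor of muscle, differed by 6.41 ± 0.12 and -3.66 ± 0.08. Scaled to bulk muscle, 1 of the 31 (Tead1) was higher, 28 lower and 2 not called in GPI against Sham, where 97.6% of all tested genes were lower. In GMTT against GPI, 26 were higher, 2 lower (1 without GMTT replicate 3) and 3 not called, where 95.0% of all tested genes were higher. In GMTT against Sham, 30 were lower and 1 not called, where 97.2% were lower. With slow fibre genes as the scale, 2 were higher in GPI against Sham and 2 in GMTT against Sham. Tead1 was within 1 log2 unit of the muscle bulk in each comparison (0.43 ± 0.18, -0.96 ± 0.09 and, for GMTT against Sham, -0.53 ± 0.20). It lost its call in GPI against Sham without Sham replicate 1 or 3, and turned to 0.76 in GMTT against Sham with slow fibre genes as the scale. In the other direction, the stretch-gated channel gene Piezo1 averaged 113 ± 7.93 normalised CPM in GMTT, 37.3 ± 3.79 in GPI and 150 ± 8.01 in Sham, and the integrin linker gene Tln1 averaged 1016 ± 50.9 in GMTT, 273 ± 3.61 in GPI and 877 ± 35.0 in Sham.

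Cntfr needs its ligands and the shared receptors gp130 and LIF receptor to signal. On the TMM scale, 40.1% of all tested genes were called higher and 48.1% lower in GPI against Sham. In GMTT against GPI these shares were 45.7% and 40.2%, and in GMTT against Sham 29.5% and 28.3%. Of 17 genes of CNTF and IL-6 family signalling tested, 9 were higher and 7 lower in GPI than in Sham (6 and 10 with library totals alone). Cntf itself was not called. In GMTT against GPI, 7 were higher and 9 lower (10 and 4 with library totals alone), again with Cntf not called. For GMTT against Sham, 9 were higher, 1 lower and 7 not called; the 1 lower was Socs1, named after its values were seen, and it was not called with DESeq2 or without GMTT replicate 1 or 2 or Sham replicate 1 or 3. Cardiotrophin-1 (Ctf1) averaged 1.96 ± 0.0733 normalised CPM in GMTT, 13.9 ± 1.29 in GPI and 1.12 ± 0.296 in Sham, and its log2 difference was 3.63 ± 0.16 for GPI against Sham and -2.83 ± 0.15 for GMTT against GPI. Oncostatin M (Osm), a cytokine of myeloid cells, ran the other way, at 7.10 ± 0.544 normalised CPM in GMTT, 0.0560 ± 0.0970 in GPI (2 counts in all) and 7.29 ± 0.730 in Sham, as did the kinase gene Tyk2 at 57.8 ± 2.22, 12.1 ± 1.14 and 54.7 ± 3.16 in the same order.

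Other genes of inositol phosphate metabolism, kinases and the hydrolase genes Nudt3 and Nudt4 (the last named after its values were seen), had smaller differences than Ip6k3 in GPI against Sham. Over all tested genes, 40.1% were called higher and 48.1% lower in GPI against Sham. In GMTT against GPI these shares were 45.7% and 40.2%, and in GMTT against Sham 29.5% and 28.3%. Of the 11 inositol phosphate genes tested, 6 were higher and 5 lower in GPI than in Sham (2 and 9 with library totals alone). In GMTT, 4 of the 11 were higher and 6 lower than in GPI (8 and 2 with library totals alone). GMTT against Sham gave 3 higher, 4 lower and 4 not called (2 lower with median-of-ratios scaling, with DESeq2, or without GMTT replicate 1 or 2 or Sham replicate 1 or 2). The highest was Ppip5k1, which encodes the next kinase of the pyrophosphate pathway, with 2.30 ± 0.07 for GPI against Sham and -2.04 ± 0.06 for GMTT against GPI, beside 7.88 and -3.78 for Ip6k3. Nudt3, whose product removes pyrophosphates, differed by 1.78 ± 0.05 and -1.42 ± 0.05. Ppip5k2 differed by -1.14 ± 0.06 and 0.98 ± 0.06.

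The other actin genes gave the background for Actc1. Cytoplasmic actin genes were lowest in GPI: Actb averaged 3339 ± 70.6 normalised CPM in GMTT, 745 ± 19.6 in GPI and 3050 ± 58.6 in Sham, and Actg1 averaged 1200 ± 40.1, 357 ± 19.6 and 953 ± 36.6 in the same order. Smooth muscle actin, Acta2, averaged 63.1 ± 4.17 in GMTT, 161 ± 2.96 in GPI and 21.04 ± 1.95 in Sham. Of the 5 actin genes other than Actc1, the bulk muscle gene Acta1 among them, 3 were higher and 2 lower in GPI than in Sham. In GMTT, 2 were higher and 3 lower than in GPI, and 5 were higher than in Sham. Over all tested genes, 40.1% were called higher and 48.1% lower in GPI against Sham. In GMTT against GPI these shares were 45.7% and 40.2%, and in GMTT against Sham 29.5% and 28.3%. The 10 smooth muscle markers summed to 0.0455 to 0.0483% of counts in GMTT, 0.103 to 0.106% in GPI and 0.0244 to 0.0250% in Sham, none at 0; their part in the Actc1 level was not tested.

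Because Actc1 and Xirp1 are known from developing or regenerating fibres, genes of immature fibres were counted beside them. Of 17 tested, 15 were higher and 2 (Gadd45a and Runx1) lower in GPI than in Sham, 2 were higher and 15 lower in GMTT than in GPI, and 12 were higher, 3 lower and 2 not called in GMTT against Sham. Myf6, a myogenic factor gene that adult fibres keep on, averaged 13.1 ± 0.614 normalised CPM in GMTT, 349 ± 6.45 in GPI and 0.956 ± 0.386 in Sham. Pax7, which marks satellite cells, the muscle stem cells, had 26 counts summed over GMTT, 185 over GPI and 0 over Sham. Scaled to bulk muscle, 97.6% of all tested genes were lower in GPI against Sham. In GMTT against GPI 95.0% were higher, and in GMTT against Sham 97.2% were lower. On that scale, 3 of the 17 were higher, 11 lower and 3 not called in GPI against Sham (7 higher with slow fibre genes as the scale). For GMTT against Sham, 2 were higher, 10 lower and 5 not called (7 higher with slow fibre genes as the scale, 0 without Sham replicate 3). For GMTT against GPI, 8 were higher, 4 lower and 5 not called. Their median log2 difference on that scale was 0.24, beside 3.49 for all genes and 2.41 ± 0.07 for Actc1. The list's summed share was 0.0326 to 0.0328% of counts in GMTT, 0.0705 to 0.0725% in GPI and 0.0284 to 0.0290% in Sham. Chrng and Gadd45a had the most counts of the list in GMTT and Sham. Summed over 3 libraries, Chrng had 5730 in GMTT, 4354 in GPI and 6205 in Sham, and Gadd45a 3983, 1078 and 5126. Myh3 had 2015, 13401 and 401 in the same order. Chrng and Myh3 were named after their values were seen. The sum is therefore not a measure of immature fibres alone.

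Slow fibre genes gave a check on fibre type, since Ankrd2 and Csrp3 are known to be enriched in slow muscle. Of 10 tested, 10 were higher in GPI than in Sham, 10 were lower in GMTT than in GPI and 10 were higher in GMTT than in Sham. Slow myosin, Myh7, differed by 6.69 ± 0.06, -3.60 ± 0.05 and 3.09 ± 0.05 in these comparisons, and the slow light chain Myl3 by 7.34 ± 0.06, -4.26 ± 0.05 and 3.07 ± 0.05. Scaled to bulk muscle, 97.6% of all tested genes were lower in GPI against Sham. In GMTT against GPI 95.0% were higher, and in GMTT against Sham 97.2% were lower. On that scale, 1 of the 10 slow fibre genes was higher, 8 lower and 1 not called in GPI against Sham. In GMTT against GPI, 4 of the 10 were higher, 3 lower and 3 not called (5 lower without GMTT replicate 3). In GMTT against Sham, 10 of the 10 were lower. Their median log2 difference on that scale was -0.92 in GPI against Sham, -0.03 in GMTT against GPI and -0.87 in GMTT against Sham. In the same order, Ankrd2 was at -1.39 ± 0.10, -0.95 ± 0.08 and -2.34 ± 0.11, and Csrp3 at -0.85 ± 0.09, -1.25 ± 0.07 and -2.10 ± 0.10. The list was not uniform: Myh7 was at 0.03, -0.22 and -0.19, and Myl3 at 0.68, -0.88 and -0.20. Tpm3 and Atp2a2, which other cells also express, were at -4.41, 1.69 and -2.72 and at -1.87, 0.12 and -1.75. The summed share of the list was 0.505 to 0.521% of counts in GMTT, 2.58 to 2.76% in GPI and 0.130% in each Sham library.

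The genes with profiles most like each of the 8 were found by Euclidean distance between centred log2 profiles over the 9 libraries, with the 8 left out. Abra lay closest to Barx2 (distance 1.05), Zdbf2 (1.33) and Myf6 (1.35), and Xirp1 to Myf6 (0.97) and Barx2 (1.15). For Cntfr the closest was Flnc (0.57), then Lmod2 (0.77), and for Ip6k3 Mylk4 (0.45), Pax7 (0.52) and Scn4a (0.52). Csrp3 was closest to Enah (0.41), Zfp612 (0.49) and Zbtb16 (0.62), and Ankrd2 to Zbtb16 (0.53), Mustn1 (0.58) and Enah (0.61). Ankrd1 was closest to LOC108352070 (0.41). No gene lay close to Actc1: the nearest were Nmrk2 (2.15), Myl10 (2.42) and Mybpc2 (2.47). Nmrk2, a muscle nicotinamide riboside kinase gene, averaged 11.9 normalised CPM in GMTT, 34.3 in GPI and 0.642 in Sham.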

How the data were processed

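Per the labels' protocols, poly(A)-selected RNA went into paired-end dUTP libraries, which keep the strand. The authors deposited whole-number counts per gene and FPKM values per gene, which the submitters' processing notes place on build mRatBN7.2; the aligner, counter and strand setting used are not stated. Counts were fitted with edgeR 4.0.16 (R 4.3.3; robust quasi-likelihood F test, 2-sided, TMM scaling, default filter with a minimum count of 10), all 9 libraries in 1 model of 3 groups, with Benjamini-Hochberg adjusted p below 0.05 over 15936 genes as a call. A second fit used the summed bulk muscle counts as library size. Log2 ratios to the mean log2 of 21 bulk muscle genes used a pseudocount of 0.5 counts. FPKM served only to compare genes within a library.

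The 8 genes and the lists were chosen with earlier results of these data known. Named list genes were the 2 highest and 2 lowest log2 differences of GPI against Sham in each list, plus the 3 nearest profiles of each of the 8. Not every gene this rule takes is reported here. The fit was tested on simulated data. Alternatives were median-of-ratios scaling, library totals alone, DESeq2 1.42.0, no low-count filter, a replicate block, other muscle references and leaving out each library.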

Additional observations from a re-analysis of the deposited data

How the results depend on the processing

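Depth limits the Sham levels of Cntfr, Ip6k3 and Actc1, which rest on 20 counts or fewer per library. With library totals alone, 3521 genes instead of 6387 were higher in GPI against Sham and 3016 instead of 6400 lower in GMTT against GPI; relative to slow fibre genes, 341 instead of 81 were higher in GPI against Sham and 391 instead of 58 in GMTT against Sham. The total numbers of genes called, in both directions, stayed within 1.5 times under each alternative run: leaving out 1 library gave 13858 to 14269 for GPI against Sham, 13441 to 13881 for GMTT against GPI and 8355 to 9282 for GMTT against Sham, and 15723 to 15871, 15519 to 15652 and 15583 to 15768 relative to bulk muscle genes. Replicate numbers did not pair the libraries (correlations of same-numbered deviations from -0.15 to 0.06); with a replicate block 13960, 13574 and 8815 genes were called. The median log2 ratio over the 8 genes was 0.82 to 0.92, -1.63 to -1.53 and 0.16 to 0.23 when 1 library was left out. With Acta1 alone as reference it was 1.05 for GPI against Sham and -1.72 for GMTT against GPI; with Myh4 alone -1.88 for GMTT against GPI and -0.24, reversed, for GMTT against Sham; with slow fibre genes 1.73, -1.48 and 1.16. Reversed single values were Actc1 (0.13) and Fhl2 (0.23) in GMTT against GPI with library totals alone; with slow fibre genes, Ankrd1 (0.027) and Csrp3 (0.19) in GPI against Sham and Flnc (1.23), Lmod2 (1.16) and Tead1 (0.76) in GMTT against Sham; with Myh4 alone, Abra (-0.064) and Cntfr (-0.42) in GMTT against Sham; and Cntfr in GMTT against Sham without GMTT replicate 1 (-0.027), GMTT replicate 2 (-0.030) or Sham replicate 1 (-0.18), in a range up to 0.17 without Sham replicate 3. The causes were not tested.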
